A study of Mus musculus with 2 samples.

Results

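The genes described here are those of the neuromuscular junction, the synapse at which a motor axon drives a muscle fibre. They are the muscle acetylcholine receptor subunits Chrna1, Chrnb1, Chrnd, Chrne and Chrng, with Musk, Rapsn, Lrp4, Dok7 and Ache, 10 genes of 27555 on the arrays. They were found by symbol, or by an older or current alias, among the probes that are not controls, and 15 of 41069 probes belonged to them. Gene expression was measured in gastrocnemius (GAS) muscle of 15-week-old male mice on a normal diet, WT or Gde5 skKO, on 2 two-colour arrays with swapped dyes. Gde5 skKO mice carry floxed alleles of Gde5, also called Gpcpd1, which encodes a glycerophosphocholine phosphodiesterase, on a C57BL/6 background, with Cre driven by the human skeletal actin promoter. Deletion was therefore directed at muscle fibres, and not at motor neurons or Schwann cells. The labels call the control group wild-type without giving its floxed or Cre alleles, and state neither fasting nor glucose treatment. The paper describes array comparisons after a glucose injection and under fasting, and does not say which of them these arrays hold. Array 1 set WT RNA in Cy3 against Gde5 skKO RNA in Cy5, and array 2 reversed the dyes. The series lists 5 mice of each genotype, and no label tells if their RNA was pooled, or if array 2 repeated the RNA of array 1. The 2 arrays are therefore hybridizations and not mice, and no p given below measures the spread between mice.

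The muscle receptor is a ligand-gated cation channel built of alpha, beta and delta subunits with either gamma, in fetal or denervated muscle, or epsilon, in innervated adult muscle. Agrin released by the nerve binds Lrp4, which activates the kinase Musk, and Dok7 and rapsyn link that signal to the clustering of receptors under the nerve terminal. Acetylcholinesterase, the product of Ache, ends transmission by hydrolysing acetylcholine. In innervated fibres receptor genes are transcribed mainly by the nuclei beneath the synapse, and loss of nerve activity is known to raise Chrna1, Chrng and Musk along the fibre. E-boxes bound by myogenic factors and N-boxes bound by Ets factors are the known elements of these promoters.

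The 250 bases before the transcription start are shown for Chrna1 and Ache, which were called higher in Gde5 skKO muscle. For comparison they are also shown for the adult and fetal subunit genes Chrne and Chrng. Chrne was not called, and Chrng was too dim to be tested. The sequences are those of RefSeq on GRCm38.p6, whose table matched 7 of the 10 genes, with no entry used for Chrnd, Lrp4 and Rapsn. Capitals mark E-boxes (CANNTG, which includes CAGCTG, the form that MyoD prefers) and the N-box core (CCGGAA or its complement TTCCGG), searched on both strands. The windows are chr2:73580339-73580588 on the minus strand for Chrna1, chr11:70619195-70619444 on the minus strand for Chrne, chr5:137288004-137288253 on the plus strand for Ache and chr1:87205561-87205810 on the plus strand for Chrng.
Chrna1: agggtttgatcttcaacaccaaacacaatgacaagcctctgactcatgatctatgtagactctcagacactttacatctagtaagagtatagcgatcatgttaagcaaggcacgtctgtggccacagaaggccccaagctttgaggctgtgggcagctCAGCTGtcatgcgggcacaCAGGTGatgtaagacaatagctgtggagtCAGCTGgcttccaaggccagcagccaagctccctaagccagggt
Chrne: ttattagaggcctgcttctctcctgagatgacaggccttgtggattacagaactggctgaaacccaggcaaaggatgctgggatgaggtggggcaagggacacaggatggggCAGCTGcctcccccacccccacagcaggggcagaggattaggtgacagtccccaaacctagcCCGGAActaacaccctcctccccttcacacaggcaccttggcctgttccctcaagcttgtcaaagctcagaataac
Ache: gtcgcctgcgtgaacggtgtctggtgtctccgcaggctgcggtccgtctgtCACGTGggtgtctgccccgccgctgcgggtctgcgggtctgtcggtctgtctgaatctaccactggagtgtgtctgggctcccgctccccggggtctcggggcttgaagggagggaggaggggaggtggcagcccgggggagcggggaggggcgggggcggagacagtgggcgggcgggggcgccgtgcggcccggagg
Chrng: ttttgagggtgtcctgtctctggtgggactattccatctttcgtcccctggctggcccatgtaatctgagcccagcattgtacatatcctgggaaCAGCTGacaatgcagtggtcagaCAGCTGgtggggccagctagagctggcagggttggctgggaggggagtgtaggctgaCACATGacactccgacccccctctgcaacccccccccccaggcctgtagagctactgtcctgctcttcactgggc
The Chrna1 window held 3 E-boxes, of which 2 were CAGCTG, and no N-box core. The Chrng window also held 3 E-boxes, 2 of them CAGCTG. Denervation is known to raise these 2 subunit genes, but the form that MyoD prefers was not confined to their windows. That form was also in the windows of Chrne and Musk, and absent from that of Ache. The Chrne window held 1 CAGCTG and was the only one of the matched windows with an N-box core. The Ache window had a GC content of 73.6% and 1 E-box, CACGTG. Among all 32851 RefSeq windows of this length, 66.2% held at least 1 CANNTG and 12.2% at least 3. CAGCTG occurred at least once in 13.0% of them and at least 2 times in 1.26%, and the N-box core in 12.0%. These matches are letters in a window and were not tested for binding.

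**Figure D1:**
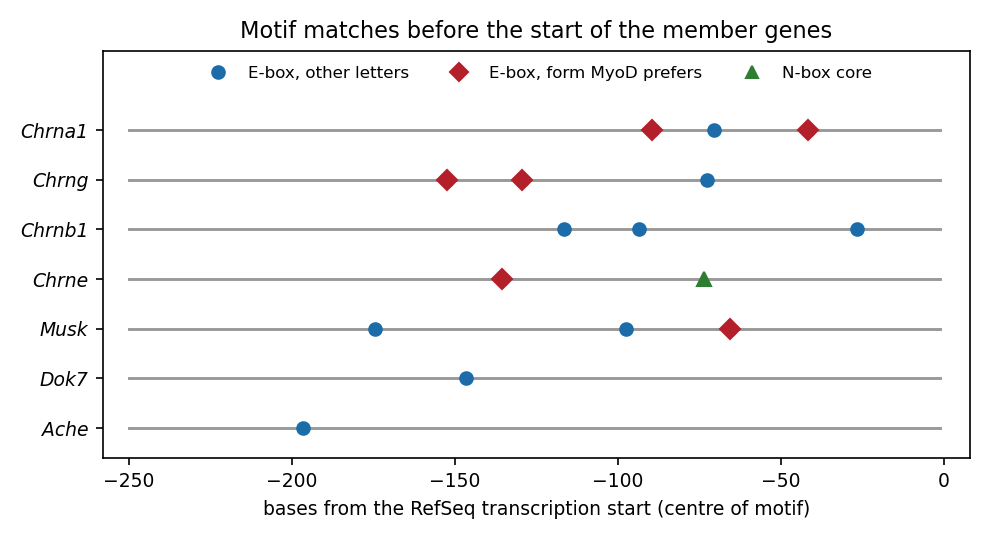
Position of E-box and N-box matches in the 250 bases before the RefSeq start of the 7 matched genes, in bases from the start, with diamonds for the E-box form that MyoD prefers, circles for other E-boxes and a triangle for the N-box core. Chrna1, Chrng, Chrnb1 and Musk had 3 E-boxes each, and the first of the 2 Dok7 windows is drawn.

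Each deposited ratio is given on the log2 scale as Gde5 skKO over WT, so that values above 0 mean a higher signal in Gde5 skKO. A gene was represented by its brightest probe among those whose signal stood well over the background, on each array, in 1 channel or more, which left 13589 genes. A gene was called higher or lower where the software's p was under 0.05 on both arrays in the same direction. This rule called 215 genes higher, 1.58% of those tested, and 235 lower, 1.73%. The median log2 ratio of all genes tested was 0.01. Of the Gpcpd1 probes, 3 of 4 were called lower with mean log2 ratios from -3.18 to -2.93, and the brightest, at -0.26, was not. All 11 muscle fibre markers were measured.

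Of the 10 junction genes, 6 passed the filter, and 2 of these, Ache and Chrna1, were called higher against a background of 1.58%. The members were chosen with earlier results of these data known, so this count does not test an excess over that share. No member was called lower. Chrne, Rapsn, Dok7 and Lrp4 were not called, and Chrnb1, Chrnd, Chrng and Musk did not pass the filter. The representative probes of all 6 stood well over the background in each of the 4 channel readings, so none passed through 1 genotype alone. Their median log2 ratio was 0.25 on array 1 and 0.20 on array 2. Of the 6, 3 were higher on both arrays and 1 lower, beside 29.2% and 25.3% of all genes. Signals of the genotypes are described below as overlapping or not, and the share of all genes without overlap was not counted. A lack of overlap is therefore description alone, and it also occurred in member probes that were not called.

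**Figure D2:**
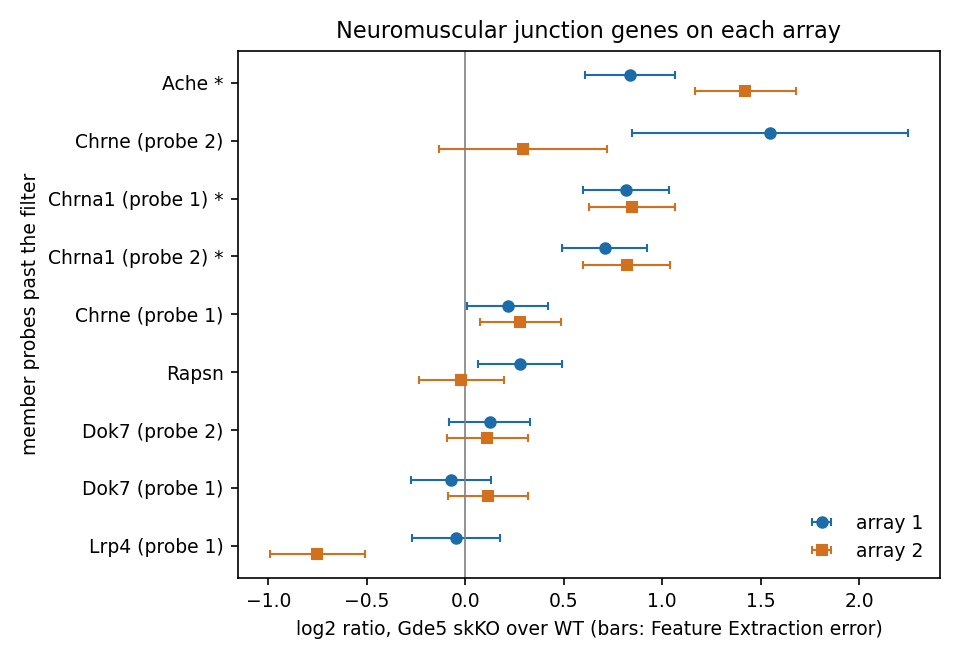
Log2 ratio of Gde5 skKO over WT for the 9 member probes past the filter, circles for array 1 and squares for array 2, with the Feature Extraction error of each ratio as bars and an asterisk on called probes. Ache and both Chrna1 probes lie above 0.70 on each array, and the Lrp4 probe lies at -0.05 and -0.75.

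Chrna1, which encodes the subunit that binds acetylcholine, rose in Gde5 skKO muscle by both of its probes. The brighter probe, at chr2:73366894-73366953 on the minus strand of the array's mm8 annotation, had a processed signal of 2447 in WT and 4304 in Gde5 skKO on array 1. On array 2 the signals were 2406 and 4327. The 2 arrays gave nearly the same levels for each genotype, and both Gde5 skKO signals lay above both WT signals. The log2 ratios were 0.81 ± 0.22 (software error) on array 1 and 0.85 ± 0.22 on array 2, with p of 0.000176 and 0.000105. The mean corresponds to a 1.78-fold higher level, and 0.81% of all genes had a higher mean ratio. A second probe at chr2:73364172-73364231 had signals of 544 in WT and 888 in Gde5 skKO on array 1. On array 2 its signals were 522 and 920. The log2 ratios of this probe were 0.71 and 0.82, with p of 0.00106 and 0.000193, so the probes of the gene did not disagree. In limma, after normexp correction and loess, the mean was 0.78, with a Benjamini-Hochberg adjusted p of 0.016 in its moderated test across all genes, which called 0.272% of genes higher and 0.500% lower.

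Ache had the highest mean ratio of the members. Its probe at chr5:137523938-137523997 on the plus strand had signals of 155 in WT and 277 in Gde5 skKO on array 1. On array 2 they were 120 and 320. The WT and Gde5 skKO signals did not overlap, but the arrays differed in size, with log2 ratios of 0.84 ± 0.23 and 1.42 ± 0.26 and p of 0.00028 and 3.25e-08. The mean of 1.13 is a 2.19-fold higher level. The probe was dim, since its unprocessed signals of 85.6 to 150 stood over local backgrounds of 45.1 to 54.5. In limma, after normexp correction and loess, the mean was 0.56, a 1.47-fold change, and the adjusted p of the moderated test was 0.103. With loess and no background correction the mean was also 0.56. The cause of the smaller limma ratio was not tested.

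**Figure D3:**
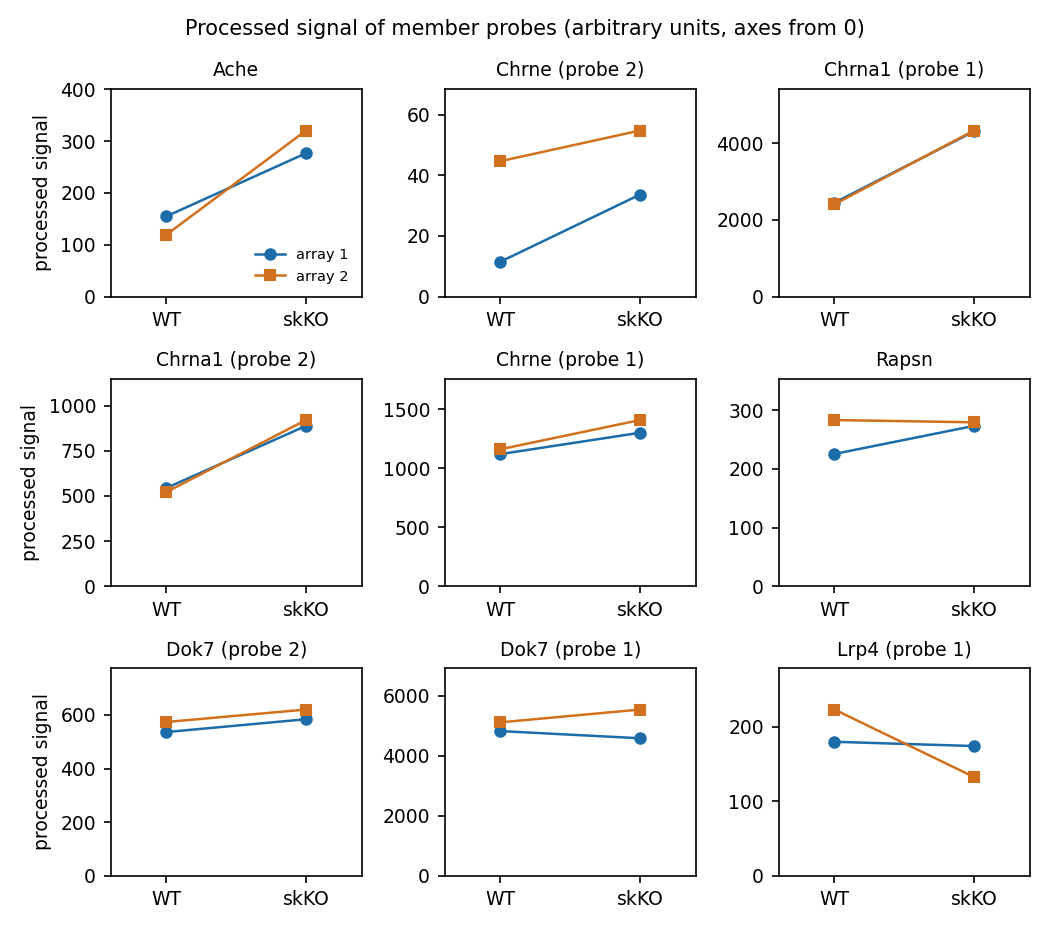
Processed signal of each member probe past the filter in WT and Gde5 skKO, in arbitrary units on axes from 0, with circles for array 1 and squares for array 2 and a line joining the channels of an array. Both Gde5 skKO values lie above both WT values for Chrna1 and Ache. The same holds for the brighter Chrne and the dimmer Dok7 probe, which were not called. Levels of different probes are not comparable.

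The epsilon subunit gene of the adult receptor, Chrne, was not called. Its brighter probe, at chr11:70431084-70431143 on the minus strand, had signals of 1121 in WT and 1302 in Gde5 skKO on array 1. On array 2 they were 1162 and 1410. Both Gde5 skKO values lay above both WT values, yet the log2 ratios of 0.22 ± 0.21 and 0.28 ± 0.21 gave p of 0.293 and 0.176. The other probe, at chr11:70434610-70434669, gave log2 ratios of 1.55 ± 0.70 and 0.29 ± 0.43. That probe was near the background, with signals of 11.5 to 54.7, and its WT channel was not well above background on array 1. The mean over both probes therefore rests on an ill-measured value. The log2 ratio of Chrna1 exceeded that of Chrne by 0.60 ± 0.30 on array 1 and 0.57 ± 0.30 on array 2, about 2 errors on each.

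The genes of the clustering pathway showed smaller or unequal ratios. Dok7, the adaptor that binds phosphorylated Musk, had log2 ratios of -0.07 ± 0.20 and 0.12 ± 0.20 by its brighter probe at chr5:35397707-35397766. The signals behind them were 4818 in WT and 4580 in Gde5 skKO on array 1, and 5110 and 5537 on array 2. The direction changed between arrays, and the groups overlapped. The other Dok7 probe, at chr5:35404594-35404653, gave 0.12 ± 0.21 and 0.11 ± 0.21. Neither was called, and the Chrna1 ratio exceeded that of the brighter Dok7 probe by 0.89 ± 0.30 and 0.73 ± 0.30.

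Rapsn encodes rapsyn, the scaffold that holds receptors in clusters. Its probe, which spans chr2:90844530-90845684 over 1155 bases of the annotation, had signals of 226 in WT and 274 in Gde5 skKO on array 1. On array 2 they were 284 and 280. The groups overlapped, with log2 ratios of 0.28 ± 0.21 and -0.02 ± 0.21 and p of 0.195 and 0.926.

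Lrp4, the agrin receptor of the fibre, was lower on array 2 alone. Its probe at chr2:91314514-91314573 had signals of 180 in WT and 174 in Gde5 skKO on array 1. On array 2 they were 223 and 132. The log2 ratio was -0.05 ± 0.22 on array 1, with p of 0.837, and -0.75 ± 0.24 on array 2, with p of 0.00171. The arrays thus disagree on Lrp4 by more than the software's error, and the gene was not called. Its other probe was not well above background in any channel.

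**Figure D4:**
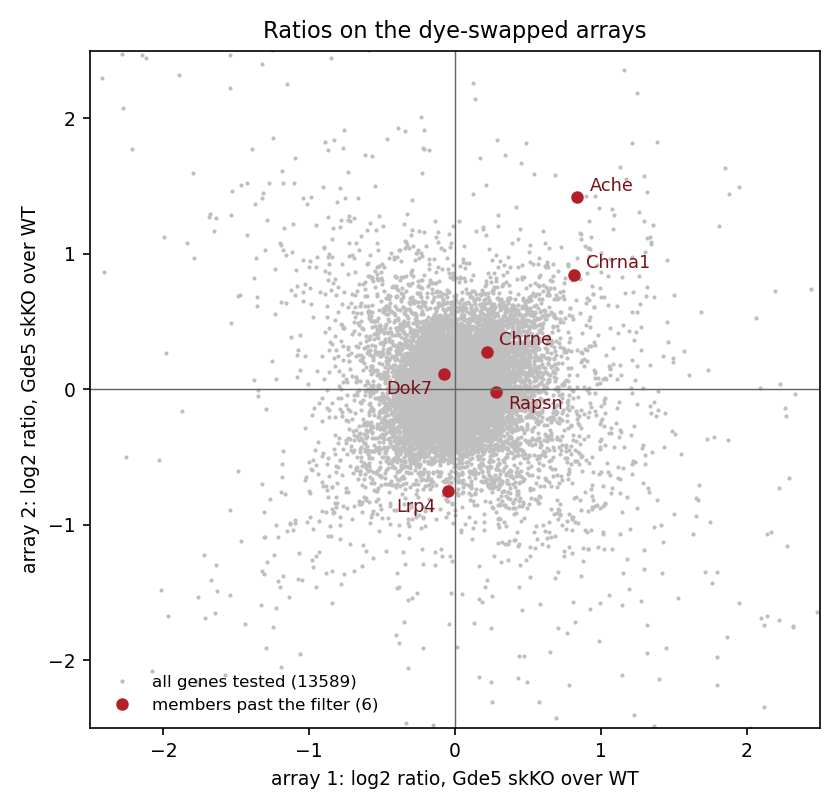
Log2 ratio of Gde5 skKO over WT on array 1 against array 2 for the 13589 genes tested, in grey, with the 6 members past the filter in red, and 40 genes outside the axis limits of 2.5 not shown. Ache and Chrna1 lie at the upper right, away from the mass of genes, while Lrp4 lies below 0 on array 2 and near 0 on array 1.

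Chrnb1 was measured on array 1 alone, and the other subunits and the kinase lay near or below the limit of detection. Chrnb1, the beta subunit gene, had signals of 235 in WT and 313 in Gde5 skKO on array 1, both well above background, with a log2 ratio of 0.41 ± 0.22 and p of 0.0647. On array 2 the same probe gave 66.9 and 75.2, neither well above background. The signal was thus 3.52-fold higher on array 1 in WT and 4.16-fold in Gde5 skKO, against medians of 0.976 and 0.967 over all genes. Only 23 of the 13589 genes tested were over 3-fold brighter on array 1 in both genotypes, and the reason was not tested.

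Chrng, the fetal gamma subunit gene, was well above background only in Gde5 skKO on array 1, by both probes. The first probe had signals of 38.9 in WT and 35.4 in Gde5 skKO on array 1, and 10.1 and 48.2 on array 2. The second had 7.15 and 30.8 on array 1, and 9.44 and 7.25 on array 2. The log2 ratios were -0.14 ± 0.51 and 2.26 ± 0.89 for the first probe, and 2.1 ± 0.86 on array 1 for the second. The probes thus differed on array 1, and neither passed the filter. Of the Chrng signals, 10.1, 7.15, 9.44 and 7.25 were the software's substitutes for channels too near the background. The Gde5 skKO channel of array 1 also had the largest share of all spots well above background, 53.2%. Chrnd, the delta subunit gene, and Musk never stood well above background, with signals of 10.5 to 25.2 for Chrnd and 15.3 to 19.0 for Musk. Their ratios are not measured at this sensitivity, which differs from being unchanged.

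Other genes of the synapse were set beside the members. Of 34 such genes, 29 passed the filter, with a median log2 ratio of 0.05. None was called in either direction by the software's rule, which called 1.58% of all genes higher and 1.73% lower. Having no call is near those shares for a list of this size. Limma's moderated test also called none after adjustment. At an unadjusted p under 0.05 it called 4, all with positive ratios (Ank3, Dag1, Dnaja3 and Lamb2). Of all 13589 genes that unadjusted test called 575 higher and 579 lower. The 29 genes past the filter ranged from -0.25 for Col13a1, a transmembrane collagen of the junction, to 0.36 for Lamb2, a chain of synaptic laminin. Agrn, which encodes agrin, had ratios of 0.19 and -0.09, and Erbb3, a receptor for neuregulin, -0.01 and -0.06. Agrn and Erbb3 lay near 0 on both arrays in this bulk muscle RNA, and agrin released by the nerve was not measured. Gabpa, an Ets factor that binds N-boxes, had ratios of -0.24 and -0.15 by its brightest probe, and -0.28 as the mean of 3 probes. For Utrn, which encodes the utrophin of the postsynaptic membrane, the probes disagreed: the brightest gave 0.00 and -0.30, while another was called higher at 0.71 and 0.54. Colq, which encodes the collagen tail that anchors acetylcholinesterase, was not well above background in any channel. Nrg1, the neuregulin gene, did not pass the filter either, although 1 of its 5 probes had a signal of 361 in WT on array 2 against 11.8 in WT on array 1.

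The subunits of neuronal acetylcholine receptors were not detected well enough to test. None of the 11 genes passed the filter. Of their 16 probes, 12 had no channel well above background. The other 4, for Chrna2, Chrna9 and Chrna10, were above it in Gde5 skKO on array 1 alone, and none was above it in WT. The channel of those 4 probes is also the one with the largest share of spots well above background in all, 53.2% against 44.6% to 47.4% in the other 3.

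Genes that denervation is known to raise outside the synapse were measured for comparison, all 16 of them past the filter. By the rule that calls 1.58% of all genes higher, 5 were called higher and none lower, with a median log2 ratio of 0.21. The list was chosen with earlier results of these data known, so its count does not test an excess over that share. Myh3, embryonic myosin heavy chain, had ratios of 1.95 and 1.50. Ankrd1, a stretch-responsive sarcomere protein gene, had 1.37 and 0.68. Sln, which encodes sarcolipin, an inhibitor of the sarcoplasmic calcium pump, had 1.00 and 0.68. The other called genes were Cdkn1a, the p21 cell cycle inhibitor gene, at 0.86 and 0.82, and Ncam1, the neural cell adhesion molecule of denervated fibres, at 0.60 and 0.47. Ncam1 was called by 1 of 4 probes past the filter, and their mean was 0.11. Myog, the myogenic factor known to drive receptor genes after denervation, had 0.18 and 0.01 and was not called. By limma's adjusted test 2 of the 16 genes, Myh3 and Sln, were called.

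**Figure D5:**
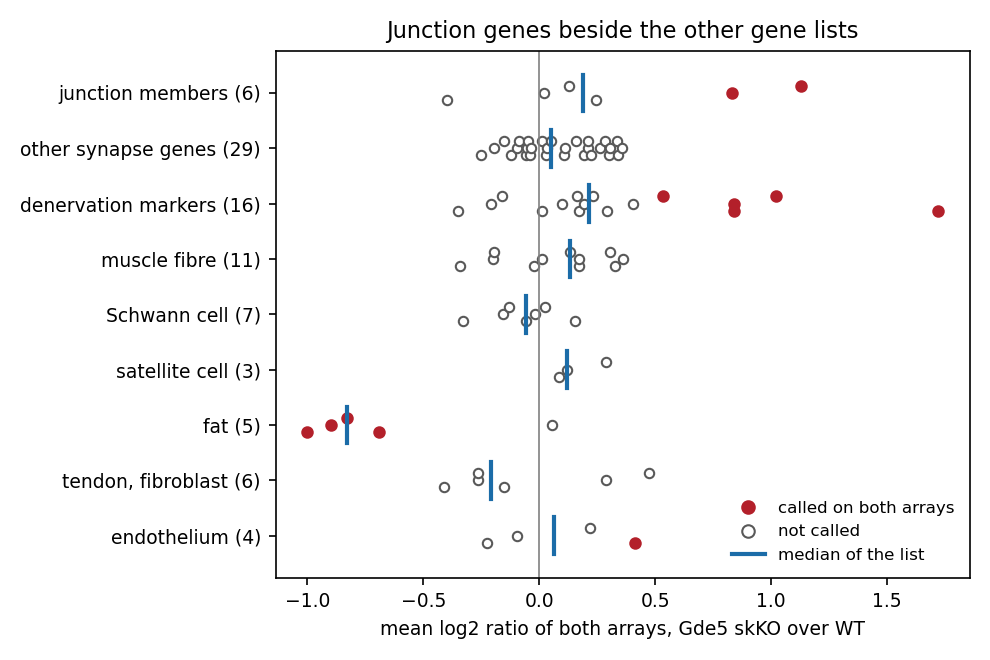
Mean log2 ratio of both arrays for every gene past the filter in the junction members and 8 other lists, with filled points for genes called on both arrays and a bar at each list's median. Called genes appear among the members, the denervation markers, fat and endothelium, and none of the 29 other synapse genes was called.

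Markers of other cells were read beside these values. In bulk muscle, fewer cells of a type and less RNA per cell cannot be told apart. Of 11 markers of the motor axon and nerve terminal, only Vamp1 passed the filter, and it was not called, at 1342 and 1559 in WT and 1568 and 1957 in Gde5 skKO. Chat, Slc5a7 and the neurofilament genes never stood well above background, and the summed signal of the list is that of Vamp1. Of 9 Schwann cell markers, 7 were measured and none was called, with summed signals, mostly of Pmp22, of 6879 and 7230 in WT and 6171 and 6620 in Gde5 skKO. Satellite cell markers, 3 of 4 measured, were not called, with summed signals, mostly of Cdh15, of 1027 and 1101 in WT and 1096 and 1203 in Gde5 skKO. Fat markers differed, with 4 of 5 measured genes called lower, Adipoq at -0.97 and -1.03, Cfd at -0.89 and -0.91, Retn at -0.82 and -0.84 and Plin1 at -0.80 and -0.57. The summed fat signal, 42869 and 44210 in WT and 42765 and 40516 in Gde5 skKO, was mostly that of the uncalled Fabp4. Of 4 endothelial markers, all measured, Kdr was called higher, at 0.43 and 0.40. The uncalled Pecam1 was at 0.18 and 0.26, Cdh5 at -0.07 and -0.12, and Tek at -0.20 and -0.25. The endothelial list summed to 6884 and 7249 in WT and 7958 and 8257 in Gde5 skKO, mostly of Kdr and Cdh5. No marker of the 6 tendon and fibroblast genes was called, with summed signals, mostly of Dcn, of 55743 and 44327 in WT and 44916 and 42140 in Gde5 skKO. Of 4 blood and immune markers, 2 were measured and not called, Hba-a1 and Ptprc, with summed signals of 12424 and 12018 in WT and 11224 and 11212 in Gde5 skKO that were mostly Hba-a1. The part of fat or endothelium in the ratios of Chrna1 and Ache was not tested.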

How the data were processed

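Ratios of WT and Gde5 skKO GAS muscle came from 2 dye-swapped Agilent 44K arrays on 1 slide and 1 scan. The authors deposited Feature Extraction 9.5.3.1 output, with a log10 ratio of Cy5 over Cy3 per spot after background subtraction and dye normalization. The deposited files also hold a p-value of the software's error model and the intensity of each channel. The authors' series table repeats the log10 ratio and served as an alternative.

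Control spots and 195 and 221 outlier spots of 43379 were left out, and log2 ratios were averaged over the spots of a probe, with the median p and error. Probes were named through RefSeq, and 8059 of 41069 kept the array's name. The number of arrays limits the precision. Coordinates are those of the array on mm8, with no annotation of exons used. Limma 3.58.1 in R 4.3.3 used normexp (offset 50), loess and a moderated test. Other steps ran in Python 3.11.15 with scipy 1.17.1, pandas 2.3.3, numpy 2.4.6 and matplotlib 3.10.9, and both tests were tested on simulated data. All members were described with every probe, and of other lists the called genes and, called or not, Agrn, Colq, Utrn, Gabpa, Nrg1, Erbb3, Myog and Ncam1, with Col13a1, Lamb2 and other uncalled genes named after their values were seen. The members and lists were chosen with earlier results of these data known.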

Additional observations from a re-analysis of the deposited data

How the results depend on the processing

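Chrna1 and Ache were both called higher with the other probe choices and filters, on each array alone and at p under 0.01. The calls on each array alone were fixed in advance, since the main rule already requires both arrays. All probes of both genes stood well above background in every channel, so no filter could change these calls. Ache has 1 probe, so no choice of probe could change its call. The limma ratios and the series table kept the software's p, so there a call could change only with the sign, and neither gene changed sign. The number of members called higher was 1 where the mean log2 ratio also had to reach 1 (Ache) and 1 by limma's adjusted test (Chrna1). It was 2 by the methods' t-test of channel values without adjustment and 0 after it, where 617 genes were higher and 572 lower without adjustment and 0 and 0 with it. On single arrays it was 2 each time, and members called lower ranged from 0 to 1, Lrp4 on array 2, where its ratio was -0.75. The median of members was 0.14 with either limma ratio, 0.36 as the mean over all probes, 0.27 with no filter, and 0.20 to 0.25 on single arrays. Dok7 turned to -0.056 with normexp and loess and -0.057 with loess alone, and was -0.073 to 0.12 on single arrays, and Rapsn was -0.020 to 0.28. With the mean over all probes Chrne stood at 0.58, against 0.25 by its brighter probe, its other probe being near the background. The setting with no filter took in Chrnb1, Chrnd, Chrng and Musk. The cause of the other shifts was not tested. Over all genes, 37 were higher and 68 lower by limma's adjusted test, 575 and 579 without adjustment, 107 and 127 at p under 0.01, 50 and 76 with p adjusted within each array, 38 and 62 where the mean log2 ratio also reached 1, 928 and 724 on array 1 alone and 974 and 914 on array 2 alone. No slide or scan block could be fitted, since there is 1 slide and 1 scan. Each ratio already pairs both genotypes within an array. Signal near background limits Chrnb1, Chrnd, Chrng and Musk.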
